A study of Mus musculus with 15 samples.

Results

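Newborn mouse liver was set against the average of 2 other stages, embryonic stage E14.5 and the adult at 8 weeks, to find transcripts that peak or dip around birth. The samples were 9 of the 15 arrays of the series: neonatal replicates 1 to 3, E14.5 replicates 1 to 3 and adult replicates 1 to 3, taken by their titles. All livers came from C57BL/6 mice, an inbred laboratory strain, and no group carried an allele or a treatment. The other 6 arrays, 3 of E12.5 and 3 of E17.5 livers, were not in the contrast and serve below as the stages on either side of E14.5. Nothing in the labels ties the triplicates to different mice or litters, and each p-value therefore weighs a difference against the array-to-array spread alone, which may be technical. The neonatal livers have no stated sex or age in days.

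The embryonic liver is a blood-forming organ, packed with red cell precursors that take up iron through the transferrin receptor. Around birth blood formation moves to the bone marrow, the nutrient supply passes from the placenta to milk, and hepatocytes take on glucose, lipid and nitrogen metabolism. A difference from the average of E14.5 and adult liver has 2 forms. A transcript may lie outside both stages at birth, as a peak or a dip, or it may lie between them on a course that is not straight. A stricter test was therefore run beside the contrast. It called a feature above or below both only where neonatal liver differed from each stage in the same direction. The larger of the 2 p-values was used. A feature that misses the stricter test may still peak or dip. In whole liver, fewer cells of a type and less RNA per cell cannot be told apart.

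The arrays were 1-colour Agilent arrays, and the unit throughout is a log2 level, the log2 of a spot's signal minus the 75th percentile of its own array, so that 0 is that percentile. On the 9 arrays 56.2% to 62.9% of noncontrol spots were well above background, against 4.25% to 9.58% of negative-control spots. Neonatal arrays correlated with each other at 0.978 to 0.982 (Pearson, over probes, which share arrays and are not independent), with E14.5 arrays at 0.871 to 0.890 and with adult arrays at 0.874 to 0.902. Slides were inferred: arrays that share a scan entry in the headers were taken as 1 slide, so a slide below means such a scan group. On this reading the neonatal and adult arrays lay on 1 slide together with E17.5 replicate 3. The E14.5 arrays lay on the other slide with E12.5 and E17.5 replicates 1 and 2. Neonatal against adult is thus a comparison within a slide, whereas neonatal against E14.5 crosses slides and the E17.5 arrays alone bridge them. E17.5 replicate 1 had 55.8% of its negative-control spots well above background, so that replicate 2 is the cleaner E17.5 array of its slide. Only 112 gene symbols could be given to the probes, of which 75 were tested. None of 9 hepatocyte markers and 1 of 17 erythroid markers (Tfrc) is named on the array, so the tissue label could not be checked against its markers.

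Promoter sequences are shown for 4 genes that the results turn on, each as the 250 bases before the annotated start (RefSeq, build GRCm38.p6, 5′ to 3′ on the gene's strand). Amy2a5 codes for pancreatic alpha-amylase, an enzyme that digests starch, and its window lies at chr3:113258700-113258949 on the minus strand. Capitals mark a TATA box (TATAAA, searched on both strands), which starts 30 bases before the annotated start and which 12.4% of 32841 such windows hold.
Amy2a5: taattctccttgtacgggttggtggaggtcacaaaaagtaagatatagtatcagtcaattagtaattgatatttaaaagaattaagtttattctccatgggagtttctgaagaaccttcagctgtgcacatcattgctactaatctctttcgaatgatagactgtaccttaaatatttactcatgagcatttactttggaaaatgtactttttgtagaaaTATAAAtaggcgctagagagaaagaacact
Hmgcs1 codes for the cytosolic enzyme that makes HMG-CoA, an early step of cholesterol synthesis, and its window lies at chr13:119690101-119690350 on the plus strand. Capitals mark 1 match to CACCCCA, letters found in sterol regulatory elements (6.68% of windows hold them), and 3 matches to the CCAAT box on the other strand (33.9% of windows). The searched letters of the 2 motifs did not overlap in this window.
Hmgcs1: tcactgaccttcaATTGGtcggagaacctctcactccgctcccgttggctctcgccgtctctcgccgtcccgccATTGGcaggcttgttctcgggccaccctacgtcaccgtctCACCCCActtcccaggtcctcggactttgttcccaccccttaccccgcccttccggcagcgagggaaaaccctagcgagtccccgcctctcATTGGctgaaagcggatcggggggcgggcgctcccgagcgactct
H2ac18 and H2ac19 code for histone H2A, a core protein of the nucleosome, and lie beside each other with windows at chr3:96245247-96245496 on the plus strand and chr3:96240375-96240624 on the minus strand. Capitals mark the longest run of bases that both windows share, 169 of the 250.
H2ac18: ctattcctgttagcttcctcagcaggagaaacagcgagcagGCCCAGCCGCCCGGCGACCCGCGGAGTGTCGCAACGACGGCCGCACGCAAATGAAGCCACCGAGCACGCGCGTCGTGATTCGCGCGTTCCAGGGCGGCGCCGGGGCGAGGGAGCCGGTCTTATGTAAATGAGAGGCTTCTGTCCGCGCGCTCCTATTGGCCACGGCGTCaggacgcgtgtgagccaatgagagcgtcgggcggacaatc
H2ac19: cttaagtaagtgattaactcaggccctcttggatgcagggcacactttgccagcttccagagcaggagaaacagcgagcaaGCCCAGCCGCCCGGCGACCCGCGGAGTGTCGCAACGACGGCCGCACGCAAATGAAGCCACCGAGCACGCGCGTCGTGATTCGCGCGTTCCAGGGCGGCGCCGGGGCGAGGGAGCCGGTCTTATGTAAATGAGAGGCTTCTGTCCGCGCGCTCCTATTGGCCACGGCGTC
No promoter activity was measured, and a match is a description of the letters alone.

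Of 36928 features tested (those that a whole stage of the 3 measured well above background), 18284 (49.5%) differed from the average of E14.5 and adult at a Benjamini-Hochberg adjusted p below 0.05 (limma, 9 arrays), 8247 (22.3%) higher and 10037 (27.2%) lower in neonatal liver. At least 2-fold differences were shown by 8758 of them. Most calls came with neonatal means outside both stages, but 4722 (25.8%) had a neonatal mean between the E14.5 and adult means, 3003 of the higher and 1719 of the lower ones. Of those 3003, 2120 had the higher level in adult liver, which puts neonatal liver nearer the adult than the middle of the course. The stricter test called 879 features (2.38%) above both stages and 841 (2.28%) below both, together 4.66%. Taken singly, neonatal liver was higher than E14.5 for 27.8% and lower for 29.9% of features, and higher than adult for 19.5% and lower for 24.3% (16.4% and 19.5% when fitted within their slide). All 3 neonatal arrays exceeded all 6 others for 3111 features (8.42%) and lay under all 6 for 4901 (13.3%).

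**Figure D1:**
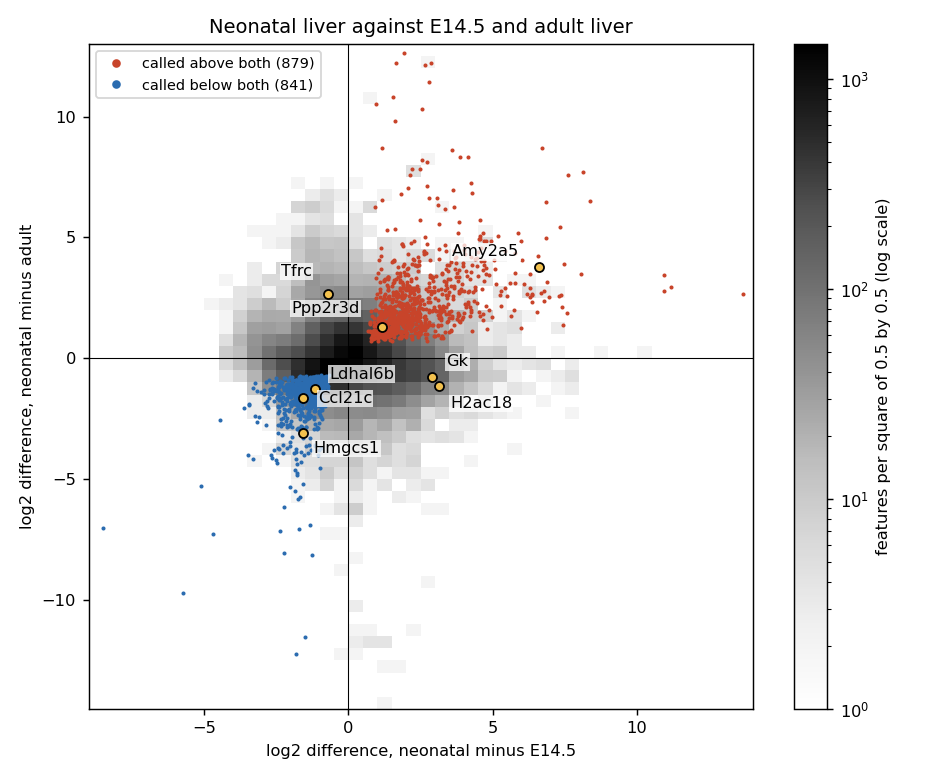
Log2 difference of neonatal minus E14.5 liver (x axis) against neonatal minus adult liver (y axis) for the 36928 tested features, as grey squares coloured by the number of features, with the 879 features called above both stages in red, the 841 called below both in blue and 8 named genes as yellow points. The red features fill the upper right, the blue ones the lower left, and Tfrc, Gk and H2ac18 lie in quadrants where the 2 differences have opposite signs.

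The 879 features above both stages had median log2 levels of 0.87, 1.27 and 1.12 on the neonatal arrays, against -1.38, -1.30 and -1.33 on the E14.5 arrays and -1.31, -1.18 and -1.27 on the adult arrays. These are values the test itself chose. The E17.5 arrays, which it did not use, stood between at -0.29, -0.43 and -0.12, and the E12.5 arrays at -1.27, -1.19 and -1.20 resembled E14.5. Neonatal liver had the highest mean of all 5 stages for 790 of the 879, E17.5 for 62 and E12.5 for 27. Within the first slide, E17.5 replicate 2 exceeded all 3 E14.5 arrays for 74.2% of the 879, against 34.4% of all features tested. Within the second slide, E17.5 replicate 3 exceeded all 3 adult arrays for 65.8% of them (32.2% of all tested) and lay under all 3 neonatal arrays for 81.0% (33.2% of all tested). The test chose these features for high neonatal and low E14.5 and adult values on the same arrays, which sets part of these shares, so they are a description and no test. Of the 879, 787 exceeded both stages at least 2-fold and 102 at least 8-fold. No E14.5 array was well above background for 155 of them and no adult array for 148, so these medians and folds include readings at background. The number called was 556, 577 and 555 without E14.5 replicates 1, 2 and 3, 415 and 462 without neonatal replicates 2 and 3, and 533 without adult replicate 3.

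The 841 features below both stages looked different across the slides. Their median log2 levels were -2.38, -2.44 and -2.43 on the neonatal arrays, against -1.02, -1.05 and -1.10 at E14.5 and -0.87, -1.12 and -1.10 in adult liver. E17.5 replicates 1 and 2, on the E14.5 slide, stood at -1.08 and -0.95, but E17.5 replicate 3, on the neonatal slide, stood at -2.07, close to the neonatal arrays. The neonatal mean lay below the mean of E17.5 replicates 1 and 2 for 835 of the 841 and below replicate 3 for 599. For 222 of them no neonatal array was well above background. Across all tested features the median of E17.5 replicate 3 minus the mean of replicates 1 and 2 was 0.06, but it was -1.15 for the 841 and 0.15 for the 879. In a fit over all 15 arrays without a slide term, 538 of the 879 features above both and 43 of the 841 below both were still called. With the slide added to that fit as a block, 173 of the 879 and 15 of the 841 were. The fit without a slide term also weighs the spread among the E17.5 arrays, which lie on both slides. The order of the fits therefore cannot divide the fall from 841 between the slide and the added arrays. The parts of stage and slide in the differences from E14.5 were not tested beyond these fits. Against adult liver, on the same slide, all 841 were called, a comparison that the test of lying below both also used. Leaving out any 1 of the 9 arrays moved the count of 841 by over 1.5 times, to between 100 (without E14.5 replicate 2) and 1344 (without adult replicate 2).

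**Figure D2:**
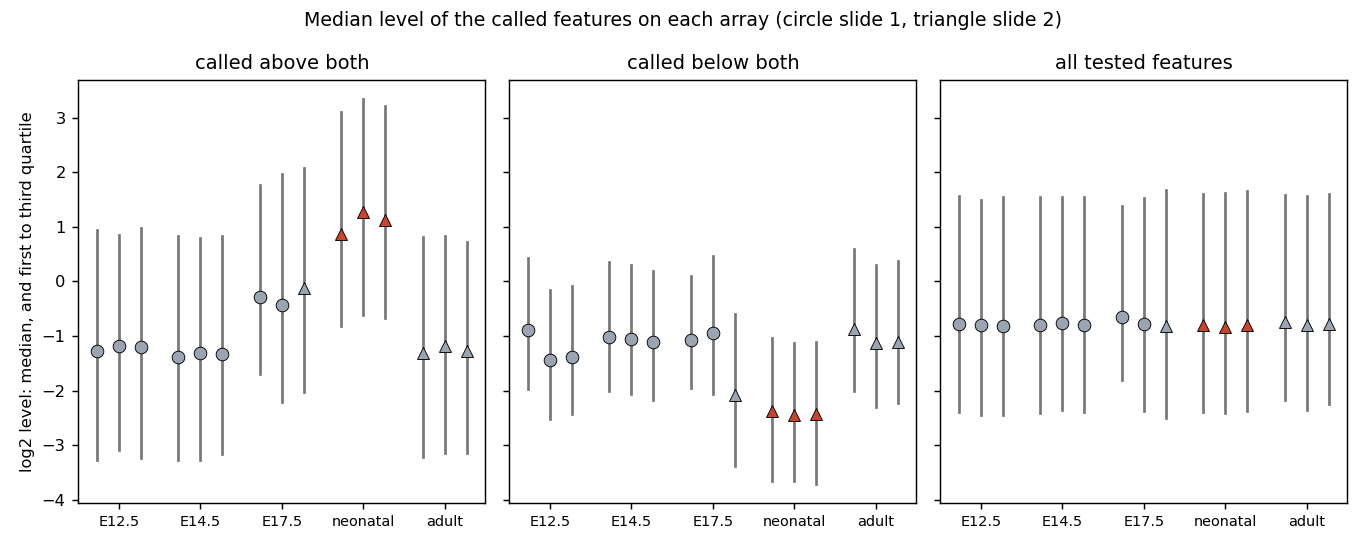
Median log2 level on each of the 15 arrays (points, with lines from the first to the third quartile over features) for the 879 features called above both stages, the 841 called below both and all tested features. Circles are arrays of the first slide and triangles those of the second. The median of the features below both is -2.07 on the E17.5 array of the second slide, against -1.08 and -0.95 on the E17.5 arrays of the first.

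Amylase gave the clearest peak among named genes. Amy2a5 had log2 levels of 5.45, 6.29 and 6.21 in neonatal livers, against -0.59, -0.41 and -0.85 at E14.5 and 2.49, 1.93 and 2.23 in adult livers. The 3 neonatal arrays lay above all 6 others, and the groups did not overlap. Its neonatal level was 96.9-fold that of E14.5 (log2 difference 6.60 ± 0.26 SE) and 13.6-fold that of adult liver (3.77 ± 0.26 SE), and its difference from the average was 5.18 ± 0.23 (SE, adjusted p = 1.37e-06). It passed the test of lying above both stages (adjusted p = 0.000185). With the slide as a block the difference from the average was 5.30. E17.5 livers had 5.38, 5.82 and 5.37, alike on both slides, while no E12.5 array was well above background. The high level was therefore reached by E17.5 and was lower again in the adult. Amylase genes form a cluster of near-identical copies, and the probe may also read RNA of the sister copies. Of 6 pancreatic acinar markers Amy2a5 is the only one named on the array, so the part of pancreatic tissue in these samples was not tested.

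Cholesterol synthesis was represented by 1 of 22 listed genes, Hmgcs1, which dipped at birth. Its log2 levels were 6.05, 5.38 and 5.71 in neonatal livers, against 7.27, 7.32 and 7.3 at E14.5 and 9.18, 8.47 and 8.81 in adult livers. All 3 neonatal arrays lay below all 6 others. The neonatal level was 3.0-fold lower than at E14.5 (log2 difference -1.59 ± 0.23 SE) and 8.61-fold lower than in adult liver (-3.11 ± 0.23 SE), and -2.35 ± 0.20 from the average (adjusted p = 4.93e-05). It passed the test of lying below both stages (adjusted p = 0.0159). E17.5 livers had 7.51, 7.75 and 8.25, and the array on the neonatal slide was the highest of the 3, above every neonatal array. E12.5 livers had 7.36, 6.63 and 6.89. With the slide as a block the difference from the average was -2.66 (adjusted p = 0.000106), but the test of lying below both stages was not passed (adjusted p = 0.34). That call was also lost without any 1 of the E14.5 arrays and without neonatal replicate 2 or 3. Within the slide of neonatal and adult liver the difference of -3.11 had an adjusted p of 0.00015. No other gene of the list has a named probe, and the pathway as a whole was not analysed here.

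CCL21 is a chemokine that draws lymphocytes and dendritic cells toward lymphatic vessels and lymph nodes, and mice carry several near-identical copies of its gene. Ccl21c had log2 levels of 1.14, 1.2 and 1.01 in neonatal livers, against 2.61, 2.88 and 2.56 at E14.5 and 1.96, 2.99 and 3.31 in adult livers. The neonatal arrays lay below all 6 others, and E17.5 livers stood between neonatal and E14.5 on both slides, at 2.04, 2.03 and 2.14. Its difference from the average was -1.60 ± 0.27 (SE, adjusted p = 0.0015), and it passed the test of lying below both stages narrowly (adjusted p = 0.041). Leaving out any 1 array except adult replicate 1 ended that call, as did the slide block (adjusted p = 1). The probes of Ccl21b and of Gm13304, whose RefSeq synonyms include Ccl21b and Ccl21c, gave differences from the average of -2.03 ± 0.36 (adjusted p = 0.00185) and -1.90 ± 0.36 (adjusted p = 0.00284). Ccl21b had -0.44, 0.05 and 0.42 in neonatal livers, against 1.73, 1.66 and 1.64 at E14.5 and 1.37, 2.71 and 3.14 in adult livers. For these probes too all neonatal arrays lay below all 6 others, but they missed the test of lying below both (adjusted p = 0.0778 for Ccl21b and 0.159 for Gm13304). Adult replicate 1 was the lowest adult array for each of the 3. The copies may share RNA on each other's probes and are not independent. Of 5 tested members of the chemokine list these 3 fell relative to the average, beside 27.2% lower among all features. Ccl28, an epithelial chemokine, and the predicted gene Gm13305, to which the tables give no role, did not pass the test (0.43 ± 0.48 and -0.39 ± 0.25, SE, adjusted p = 0.477 and 0.213).

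The other features with a symbol that were called outside both stages had low levels. Ppp2r3d, measured by a probe of a noncoding accession, had log2 levels of -1.28, -0.99 and -0.77 in neonatal livers, against -2.17, -1.93 and -2.41 at E14.5 and -2.53, -2.22 and -2.15 in adult livers. The neonatal arrays lay above all 6 others, by 1.22 ± 0.18 over the average (SE, adjusted p = 0.000722), and it passed the test of lying above both (adjusted p = 0.0202). E12.5 livers were as high as neonatal ones, at -0.93, -1.33 and -1.02, so the course dipped at E14.5 as well as in the adult. Ldhal6b, a lactate dehydrogenase-like gene, had -1.6, -2.14 and -2.03 in neonatal livers, against -0.57, -0.8 and -0.89 at E14.5 and -0.43, -0.51 and -0.97 in adult livers. Its neonatal arrays were the lowest of the 9 (difference from the average -1.23 ± 0.19 SE, adjusted p = 0.000896, below both adjusted p = 0.032). At E17.5, however, the arrays of the first slide read 0.91 and 1.32 and the array of the second read -1.56, and with the slide as a block its difference from the average was 0.11 (adjusted p = 0.863). Both calls outside the stages were fragile. Without E14.5 replicate 1 or 3, without neonatal replicate 2 or 3, and with the slide block (adjusted p = 0.402), Ppp2r3d no longer passed the test of lying above both. Ldhal6b no longer passed the test of lying below both without any 1 of the arrays except neonatal replicate 1 and adult replicate 2.

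**Figure D3:**
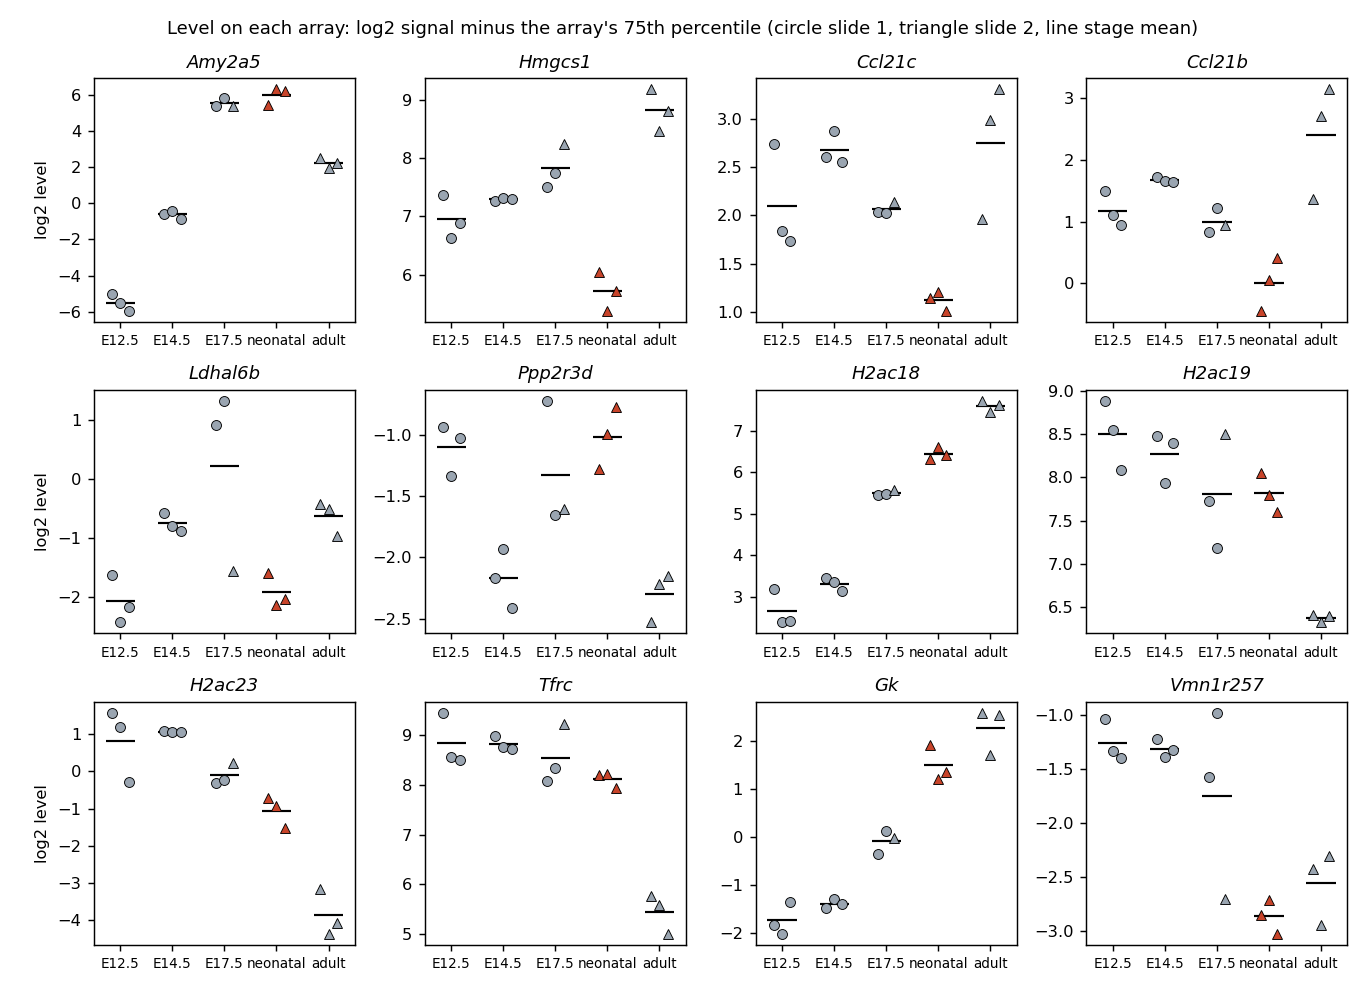
Log2 level of 12 genes on each array by stage, with neonatal arrays in red, circles for the first slide, triangles for the second and a line at the stage mean. Amy2a5 is high at E17.5 and birth, Hmgcs1 and the Ccl21 probes are lowest at birth, H2ac18 and Gk climb toward the adult, H2ac19, H2ac23 and Tfrc decline, and Ldhal6b and Vmn1r257 differ at E17.5 between the slides.

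Of the 75 tested symbols, 35 were called against the average (46.7%, near the 49.5% of all features), 17 higher and 18 lower. For 11 of the 35 the neonatal mean lay between the means of E14.5 and adult, so that the call records a bend in the course and not a peak or a dip. Tfrc, the transferrin receptor that carries iron into red cell precursors, is the plainest of these. It had log2 levels of 8.19, 8.22 and 7.93 in neonatal livers, against 8.99, 8.75 and 8.72 at E14.5 and 5.77, 5.58 and 5.01 in adult livers. Neonatal liver was closer to E14.5 than to the adult, with differences of -0.71 ± 0.22 from E14.5 (adjusted p = 0.0201) and 2.66 ± 0.22 from adult (SE, adjusted p = 1.96e-05). The difference of Tfrc from the average was 0.97 ± 0.19 (adjusted p = 0.00302), and 0.46 with the slide as a block (adjusted p = 0.412). With that block neonatal liver lay 1.74 below E14.5 and 2.66 above adult. Tfrc is the only erythroid marker named on the array.

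Glycerol kinase (Gk), which lets hepatocytes use glycerol for glucose and fat synthesis, was also above the average but lay near the adult. It had log2 levels of 1.92, 1.2 and 1.36 in neonatal livers, against -1.48, -1.3 and -1.41 at E14.5 and 2.59, 1.7 and 2.54 in adult livers. The neonatal arrays were all above E14.5, by 2.89 ± 0.28 (SE, adjusted p = 3.44e-05), and overlapped the adult ones, from which they differed by -0.78 ± 0.28 (adjusted p = 0.0453, and 0.0875 when fitted within the slide). E17.5 livers stood midway at -0.36, 0.12 and -0.03 on either slide. Its difference from the average was 1.05 ± 0.24 (adjusted p = 0.00631), and 1.01 with the slide as a block (adjusted p = 0.0765). It was 1 of 10 listed genes of glycerol use and gluconeogenesis with a named probe.

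The probes of H2ac18 and H2ac19, the neighbours whose promoter windows share a run of 169 bases, ran in opposite directions between E14.5 and adult. H2ac18 had log2 levels of 6.32, 6.61 and 6.41 in neonatal livers, against 3.44, 3.35 and 3.13 at E14.5 and 7.72, 7.45 and 7.63 in adult livers. The 3 stages did not overlap, with neonatal 3.14 ± 0.17 above E14.5 (adjusted p = 2.09e-06) and 1.15 ± 0.17 below adult (SE, adjusted p = 0.000652). H2ac19 had 8.05, 7.8 and 7.6 in neonatal livers, against 8.48, 7.93 and 8.4 at E14.5 and 6.41, 6.33 and 6.4 in adult livers. Here the neonatal arrays overlapped those of E14.5 (difference -0.45 ± 0.20, adjusted p = 0.0759) and exceeded all adult arrays (1.44 ± 0.20 SE, adjusted p = 0.000474). H2ac23, another H2A gene, fell below E14.5 by 2.13 ± 0.32 (adjusted p = 0.000454) and was not well above background on any adult array, neonatal liver being at least 5.09-fold higher (adjusted p of the unbounded difference 0.000156). H2ac18 and H2ac19 differed from the average by 0.99 ± 0.14 and 0.49 ± 0.17 (adjusted p = 0.000724 and 0.0376), while H2ac23 did not pass that test (0.34 ± 0.28, adjusted p = 0.333). With the slide as a block H2ac18 still differed from the average (0.94, adjusted p = 0.0373) and H2ac19 did not (-0.03, adjusted p = 0.964). Histone copies are near identical and their probes may share RNA, and H2ac19 and H2ac23 were picked for description after their values were seen. H2al2b, a Y-linked histone H2A-like gene of the testis, was lower than the average, with a neonatal mean of -1.89 ± 0.18, against 0.22 ± 0.21 at E14.5 and -1.97 ± 0.43 in adult livers (SD, n = 3 each), and differed from the average by -1.01 ± 0.21 (SE, adjusted p = 0.00384, and 0.177 with the slide block).

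Of 12 listed housekeeping genes, often used as loading references, 4 were higher than the average and none was lower (median log2 difference 0.28), beside 22.3% and 27.2% of all features. Besides Tfrc these were Hsp90ab1, a chaperone, Gusb, a lysosomal enzyme, and Tuba1b, a tubulin. Gusb had log2 levels of 4.0, 4.4 and 4.15 in neonatal livers, against 3.73, 3.81 and 3.73 at E14.5 and 3.57, 3.58 and 3.57 in adult livers, and all neonatal arrays exceeded all 6 others. The difference from the average was 0.52 ± 0.14 (SE, adjusted p = 0.0115), 0.12 with the slide as a block, and without neonatal replicate 2 it was not called. With the slide block none of the 4 was called (adjusted p = 0.412 for Tfrc, 0.585 for Hsp90ab1, 0.778 for Gusb and 0.86 for Tuba1b). Hsp90ab1 and Tuba1b also lost the call under quantile normalization and without some of the arrays. Actb and Gapdh differed from the average by 0.23 ± 0.14 and 0.08 ± 0.14 (SE), neither past the test (adjusted p = 0.185 and 0.672). B2m, the light chain of MHC class I, lay midway, 1.12 ± 0.19 above E14.5 and 1.25 ± 0.19 below adult liver (adjusted p = 0.000815 and 0.000817), and its difference from the average was -0.06 ± 0.16 (SE, adjusted p = 0.769). Tmlhe, the first enzyme of carnitine synthesis, likewise lay 1.27 ± 0.23 above E14.5 and 1.14 ± 0.23 below adult (SE, adjusted p = 0.0012 and 0.00361).

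Further genes differed at birth from E14.5 or from adult liver alone by the test. A difference that misses the test does not show equal levels. Tcstv1, a protein-coding gene first described in early mouse embryos, had log2 levels of -0.16, 0.17 and -0.35 in neonatal livers, against -2.56, -2.84 and -2.19 at E14.5 and -0.33, -0.8 and -0.78 in adult livers. The neonatal arrays exceeded all E14.5 arrays and overlapped the adult ones, from which the difference of 0.52 ± 0.23 did not pass the test (SE, adjusted p = 0.0967). Its difference from the average was 1.47 ± 0.20 (SE, adjusted p = 0.000546), and 1.19 with the slide as a block (adjusted p = 0.351). The long noncoding RNA 4930526I15Rik likewise stood 1.62 ± 0.22 above E14.5 (SE, adjusted p = 0.000265) and did not pass the test against adult liver (0.47 ± 0.22, adjusted p = 0.111). With the slide as a block its difference from the average was 0.92 (adjusted p = 0.0504). Vamp7, a protein of vesicle fusion, had 4.42, 3.98 and 4.31 in neonatal livers, against 4.24, 4.36 and 4.24 at E14.5 and 5.86, 5.71 and 5.46 in adult livers. Its neonatal and E14.5 arrays overlapped and both lay below all adult arrays, so that its difference from the average (-0.74 ± 0.16 SE, adjusted p = 0.00427) came with a neonatal level 2.72-fold lower than in the adult (adjusted p = 0.000267). With the slide as a block neonatal liver lay 0.92 below E14.5 for Vamp7, and its difference from the average was -1.18 (adjusted p = 0.0365). In the fit of 15 arrays without the block that call was lost.

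Vomeronasal receptors, which detect pheromones in the nose, have no known role in liver, and 8 of the 12 named on the array passed the filter on low signal. Against the average 2 of the 8 were higher and 5 lower, beside 22.3% and 27.2% of all features. Vmn1r257 had log2 levels of -2.86, -2.72 and -3.03 in neonatal livers, against -1.22, -1.39 and -1.33 at E14.5 and -2.43, -2.95 and -2.31 in adult livers. It lay below all E14.5 arrays (difference -1.56 ± 0.20 SE, adjusted p = 0.00018) and overlapped the adult ones on its own slide (-0.31 ± 0.20 SE, adjusted p = 0.228). E17.5 replicates 1 and 2 read -1.58 and -0.98 and replicate 3 read -2.71. For all 5 receptors called lower, E17.5 replicate 3 was closer to the neonatal mean than to the other 2 arrays of its own stage, as it was for 62.8% of all tested features. With the slide as a block none of the 5 was called (differences of -0.22 to 0.09, adjusted p = 0.664 to 0.931), nor was Vmn1r157, the most raised of the 2 higher ones (0.04, adjusted p = 0.978). Neonatal liver exceeded E14.5 at least 3.1-fold for Vmn1r157, which no E14.5 array measured well above background. Hhipl2, named in the list of secretion and Hedgehog release, and Csprs were well above background in adult liver alone of the 3 stages, at least 3.53-fold and 7.29-fold lower in neonatal than in adult liver (adjusted p of the unbounded differences 0.000791 and 3.76e-05). Both passed the filter through adult liver alone, where they are high, and these p-values carry that choice.

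**Figure D4:**
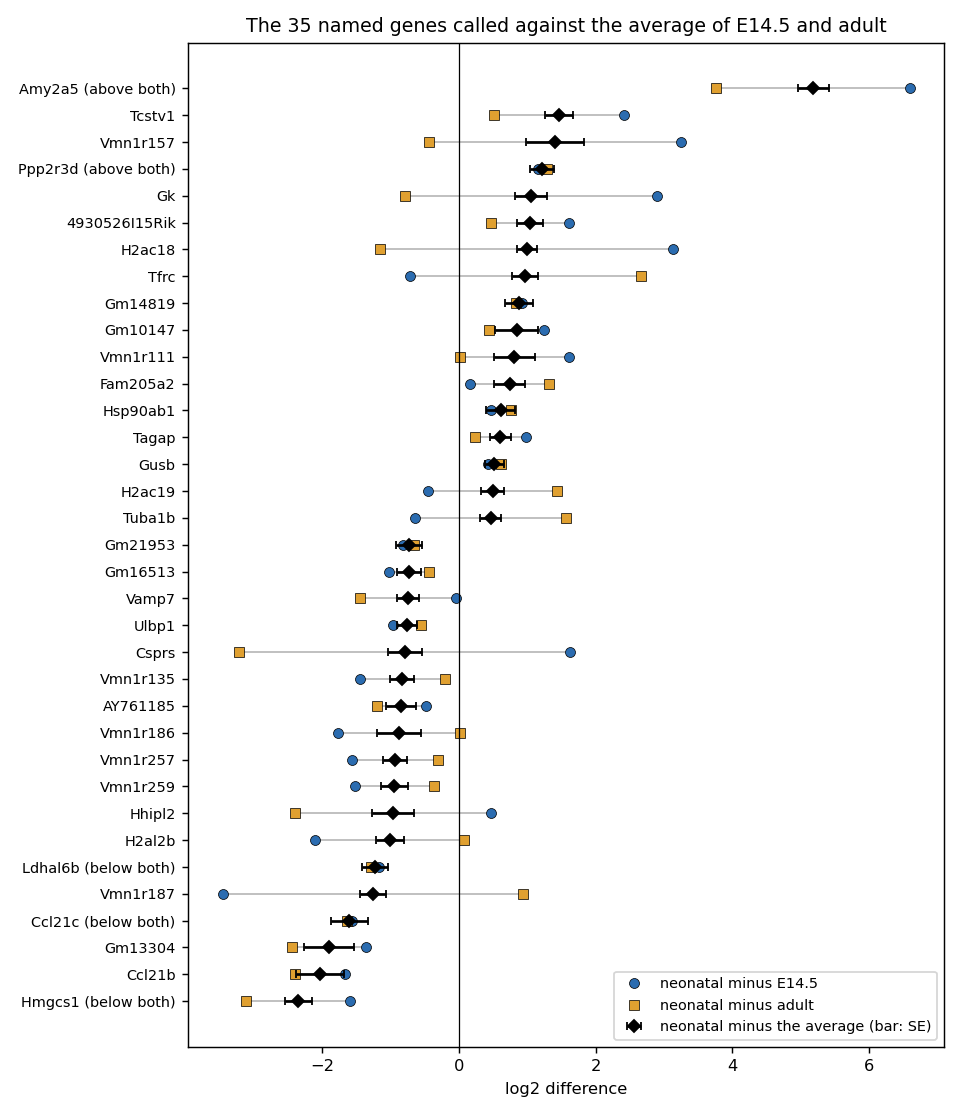
Log2 differences of the 35 named genes called against the average of E14.5 and adult: neonatal minus the average as black diamonds with SE bars, neonatal minus E14.5 as blue circles and neonatal minus adult as yellow squares. For 24 genes both coloured points lie on the same side of 0, as for Amy2a5 and Hmgcs1, and for 11, such as Gk, H2ac18 and Tfrc, they lie on opposite sides.

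Probes for long intergenic noncoding RNAs (lincRNAs) leaned downward at birth. Of 245 features named as mouse lincRNA transcripts, 27 were higher and 129 lower than the average (median log2 difference -0.72). Of 405 named as human lincRNAs, 43 were higher and 203 lower (-0.64). Single lincRNA exons gave 323 higher and 671 lower of 1844 (-0.29), and ultraconserved elements, stretches of genome kept identical between mammals, gave 50 higher and 113 lower of 327 (-0.28). The lower shares were 52.7%, 50.1%, 36.4% and 34.6% of these families, beside 27.2% of all features, whose median difference was -0.01. Lower calls outnumbered higher ones in these 4 families under quantile normalization, normexp background correction, the other percentile, the authors' table and each left-out array. With the slide as a block the balance was 3 higher and 5 lower for mouse lincRNAs, 6 and 13 for human ones, 82 and 59 for exons, which turns the direction, and 7 and 7 for ultraconserved elements. The median of E17.5 replicate 3 minus replicates 1 and 2 was -0.78 for mouse lincRNAs and -0.73 for human ones. Replicate 1, with its high negative controls, had the highest median level of the 3 for both families, and the parts of the slide and of the single arrays were not tested. Against adult liver, within the slide, the medians were -0.64 and -0.61, beside -0.18 for all features. The adult arrays were uneven, also in brightness. Their 75th percentile signals were 166.7, 238.8 and 149.8, against 219.9, 233.2 and 249.7 on the neonatal arrays. The part of brightness in the family medians was not tested. Median levels of mouse lincRNAs were -1.48, -2.05 and -1.78 on the adult arrays, against -2.19, -2.31 and -2.32 on the neonatal arrays. For human lincRNAs they were -1.57, -2.05 and -1.74, against -2.33, -2.42 and -2.46. With normexp the median differences from the average were smaller, -0.30 for mouse and -0.27 for human lincRNAs.

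**Figure D5:**
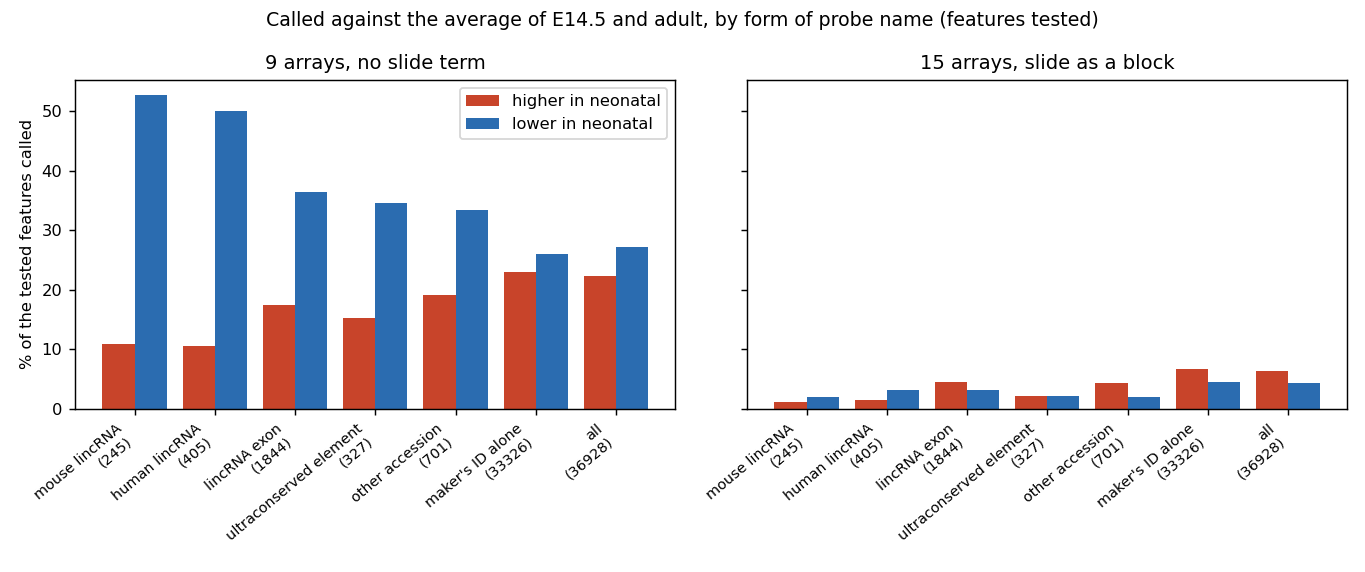
Share of the tested features called higher (red) and lower (blue) in neonatal liver than the average of E14.5 and adult, by the form of the probe name, in the fit of 9 arrays (left) and in the fit of 15 arrays with the slide as a block (right). Bars start at 0. On the left lower calls prevail most for mouse lincRNAs (129 lower, 27 higher), and on the right exon calls are 82 higher and 59 lower.

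Above both stages were 27 of 1844 lincRNA exons (1.46%), 2 of 405 human lincRNAs (0.494%), 4 of 327 ultraconserved elements (1.22%) and none of 245 mouse lincRNAs, beside 2.38% of all features. Below both were 66 exons (3.58%), 17 human lincRNAs (4.2%), 11 ultraconserved elements (3.36%) and 18 mouse lincRNAs (7.35%), beside 2.28% of all features. Under the slide block 4 exons, 1 human lincRNA and 1 ultraconserved element were above both, and of these 4 families 2 exons alone were below both. The exon probe MM9LINCRNAEXON12103+ had the largest difference from the average among the exons above both, with log2 levels of 0.45, 0.44 and 1.39 in neonatal livers, against -4.01, -4.89 and -3.68 at E14.5 and -4.12, -3.23 and -4.87 in adult livers. Neonatal liver was at least 18.2-fold higher than E14.5, where no array measured it well above background, and 1 of 3 adult arrays did. The probe thus passed the filter on low signal through the neonatal arrays alone, and its p-values carry that choice. E17.5 livers stood between on both slides, at -1.63, -2.21 and -1.59, and the call held with the slide block (adjusted p = 0.0226, against 0.000868 in the 9 arrays). Its minus-strand partner read 0.86, 1.41 and 1.32 in neonatal livers, against 0.14, 0.24 and -0.13 at E14.5 and 1.59, 1.12 and 1.08 in adult livers, and was not above both. The probe humanlincRNA0998+ had 1.1, 1.36 and 1.03 in neonatal livers, against -4.1, -4.58 and -4.68 at E14.5 and -0.61, -0.21 and -0.93 in adult livers. It was at least 24.1-fold higher than at E14.5, where no array measured it, and lay above both stages (adjusted p = 0.00485, and 0.0412 with the slide block). E17.5 read -2.91 and -3.0 on the first slide and -0.43 on the second, and in the fit of 15 arrays without the block the call was lost.

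Among lincRNA and ultraconserved probes called below both stages, exon 10679 lay furthest below the average (log2 difference -5.20). The probe of the next number, exon 10680, dipped less (-3.73). Exons 10679 and 10680 on the minus strand were not well above background on any neonatal array, with log2 levels of -4.87, -5.37 and -5.63 for exon 10679. Against them stood -0.03, -0.17 and -0.35 at E14.5 and 0.54, -0.03 and -0.47 in adult livers. On every neonatal array exon 10679 lay far under all 6 others. Neonatal liver was at least 9.57-fold lower than E14.5 and at least 10.9-fold lower than adult for exon 10679, and at least 2.42-fold and 4.34-fold lower for exon 10680. E17.5 read -2.37, -2.55 and -0.27 for exon 10679, with the array of the neonatal slide highest. Both probes passed the test of lying below both stages (adjusted p = 0.000198 and 0.00177), also with the slide as a block (adjusted p = 0.000123 and 0.00267), while normexp background correction ended the call for exon 10680. A second pair, 10872 and 10873 on the minus strand, lay below both stages, and the pairs 10079 and 10080 and 11831 and 11832 on the plus strand lay above both. Of these 6, exon 10080 alone kept its call outside both stages with the slide block (adjusted p = 0.0272, against 0.0859 to 1 for the other 5). Consecutive numbers need not mean 1 transcript, since the files give the exons no coordinates. Of 507 exons with both strands tested, 24 were called higher on both strands, 75 lower on both and 46 in opposite directions, and none lay above or below both stages on both strands.

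Among ultraconserved elements uc.74 on the minus strand had log2 levels of 1.11, 1.41 and 1.49 in neonatal livers, against -0.52, -0.71 and -0.66 at E14.5 and -0.96, -0.76 and -0.9 in adult livers. All neonatal arrays exceeded the 6 others, with a difference from the average of 2.09 (adjusted p = 1.34e-05). It lay above both stages (adjusted p = 0.000399), and with the slide block it missed that test (adjusted p = 0.112). E17.5 arrays at -0.55, -0.32 and -0.18 were near E14.5 on both slides. The element uc.428 on the plus strand had -0.54, -0.16 and 0.07 in neonatal livers, against -4.21, -4.2 and -3.48 at E14.5 and -3.26, -4.58 and -3.33 in adult livers, and it passed the same test with and without the slide block (adjusted p = 0.0111 and 0.00136). Neonatal liver exceeded adult liver at least 9.26-fold for uc.428, and 1 of 3 E14.5 arrays measured it. This element passed the filter on low signal through the neonatal arrays alone, and its p-values carry that choice. The probe mouselincRNA0941+, among the mouse lincRNAs furthest below both stages, read -5.64, -5.12 and -5.66 in neonatal livers, against -3.39, -2.71 and -3.09 at E14.5 and -3.67, -3.57 and -4.06 in adult livers. No neonatal and 1 of 3 adult arrays measured it well above background, neonatal liver being at least 1.3-fold lower than E14.5, and E17.5 read -2.31 and -2.75 on the first slide and -5.57 on the second. With the slide block neonatal liver stood 0.63 above E14.5 for this probe, the opposite direction.

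Among features called outside both stages, the largest differences from the average belonged to probes that carry the maker's ID alone. These are 33326 of the tested features, and no gene name is given to them here. A probe named by an accession, AI390938, came close, with log2 levels of 1.12, 2.26 and 2.22 in neonatal livers. No E14.5 or adult array measured it well above background, and neonatal liver was at least 39.1-fold and 39.3-fold higher. It lay above both stages (adjusted p = 2.66e-05, and 2.99e-05 with the slide block), and E17.5 read -2.51, -3.44 and -5.55. AI390938 passed the filter on low signal through the neonatal arrays alone, where it is high, and its p-values carry that choice. ASMM9PARTA044257 had log2 levels of 7.81, 8.01 and 7.95 in neonatal livers, against -5.88, -5.57 and -5.81 at E14.5 and 4.97, 5.46 and 5.42 in adult livers. Neonatal liver was at least 2610-fold higher than E14.5, where no array measured it, and 6.23-fold higher than adult. E17.5 livers read 0.64, 0.55 and -1.84, so the level at birth was far above that of E17.5 on the same slide. ASMM9PARTA029830 had 5.23, 5.59 and 5.87 in neonatal livers, against -2.3, -3.11 and -2.32 at E14.5 and -2.0, -3.19 and -1.27 in adult livers, and was already at 4.27, 3.67 and 3.69 at E17.5. ASMM9PARTA026915 dipped, with -0.62, -1.72 and -1.09 in neonatal livers, against 7.36, 7.4 and 7.31 at E14.5 and 5.57, 5.89 and 6.18 in adult livers. Its E17.5 levels of 5.31, 5.4 and 7.1 were all far above the neonatal ones, also on the same slide. ASMM9PARTA027159, well above background on 1 of 3 neonatal arrays, read -2.71, -4.72 and -3.83 in neonatal livers, against 2.15, 1.93 and 1.91 at E14.5 and 5.11, 6.49 and 6.3 in adult livers. ASMM9PARTA044257 and ASMM9PARTA027159 could not enter the alternative restricted to probes detected on all 9 arrays. In the alternatives that could be run for it, the slide block included, each of the 4 probes with a maker's ID was called outside both stages. The highest adjusted p among the alternatives was 0.0241 (ASMM9PARTA027159).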

How the data were processed

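The deposited intensity values are Agilent scanner output of 1-colour arrays, background-subtracted and spatially detrended on a linear scale, per the file headers. Per the labels, total RNA was depleted of ribosomal RNA and labelled with Cy3 by random priming. The headers name Feature Extraction 11.0.1.1, the submitters' processing notes 10.7.3.1; which made the values is not known. Multiplicative detrending had been applied to 6 arrays, all on the second slide (adult replicate 2 was spared), per the file headers. The authors' deposited value table holds log2 values, used as an alternative. Arrays that share a scan entry in the headers were taken as 1 slide.

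Control and outlier spots were left out, spots of a probe averaged, and each array's 75th percentile over noncontrol probes subtracted after log2. RefSeq accessions gave 116 of 123 probes a symbol through the reference tables (GRCm38.p6, names only). Where a symbol had several probes (3 symbols), the brightest one was kept. A feature entered the tests if a whole stage, E14.5, neonatal or adult, measured it well above background, which kept 36928 of 59705. The tests were run with limma 3.58.1 (R 4.3.3, lmFit and eBayes, two-sided, a mean per stage), with Benjamini-Hochberg adjustment over all of them. Where no array of a stage measured a feature well above background, the fold is a bound. The dim stage then enters with the array's lowest signal well above background, or with the probe's signal if that is higher, averaged over its arrays in log2 units. Where an outlier spot was missing (54 features), fewer arrays entered. The rule for naming took all symbols called above or below both stages and the 10 largest changes each way among called symbols. It added the largest change in each gene list and 3 probes each way per probe family (2 for maker's IDs). Not every feature under the rule is described above, among them Gm14819 and Gm10147, and some described genes, such as Gusb, lie outside it. The comparison, the lists and this rule were chosen with earlier results of these data known. Depth has no meaning for arrays: the number of arrays, 3 a stage, limits the precision. The files hold no mean signal, so normexp (offset 50) used median signals.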

Additional observations from a re-analysis of the deposited data

How the results depend on the processing

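The count of features called against the average, 18284, was 8758 at a change of at least 2-fold, 11484 at an adjusted p below 0.01, 10732 in the fit of all 15 arrays and 3937 there with the slide as a block. It stayed within 1.5 times under the other scalings, filters and sources. The 879 features above both stages became 393 at an adjusted p below 0.01, 559 over 15 arrays, 173 with the slide block and 566 without the filter on dim probes, and 415 to 941 when 1 array was left out. The 841 below both became 33, 43, 15 and 199 under the same settings, 281 with normexp, 1350 with the percentile over probes detected on all 9 arrays, and 100 to 1344 when 1 array was left out (the highest without adult replicate 2, the lowest without E14.5 replicate 2). The replicate block gave 653 above and 294 below both, and 17817 called against the average; same-numbered arrays deviated together no more than others (r from -0.137 to 0.098, against -0.243 to 0.199 for different numbers), so the numbers were not taken to pair samples. With the slide block the difference from the average changed sign for Vmn1r111 (-0.18), H2ac19 (-0.03), Vmn1r135 (0.085), Vmn1r186 (0.089) and Ldhal6b (0.11). The smaller of the 2 differences changed sign there for Ldhal6b (1.51), MM9LINCRNAEXON11122+ (0.27), mouselincRNA0165- (0.40), mouselincRNA0941+ (0.63), humanlincRNA1627+ (0.81), humanlincRNA2233- (0.40) and uc.51+ (0.22). The cause was not tested. Of the 35 called symbols, 7 kept their call against the average under every setting that could be run for them, and of the 5 called outside both stages Amy2a5 alone did. No scaling moved the median of all features by more than 0.07. The E14.5 stage lies on 1 slide without neonatal arrays, so a slide effect is measured through E17.5 replicate 3 alone. Signal over background limits the 222 dips that no neonatal array measured. It also limits the features above both that no E14.5 array (155) or no adult array (148) measured.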
